A study of Mus musculus with 6 samples.

Results

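The S100 calcium-binding proteins were followed in cultured vascular smooth muscle cells (VSMCs), which form the muscular layer of arteries and here came from the mouse aorta. Members were the rows of the 6 library tables whose symbol is S100a followed by a number, or S100b, which gave 9 of 7384 genes: S100a1, S100a3, S100a4, S100a6, S100a10, S100a11, S100a13, S100a16 and S100b. The other 5 of the 14 annotated mouse genes that the same pattern takes, S100a2, S100a5, S100a8, S100a9 and S100a14, were not analysed here. RNA was sequenced from 3 samples labelled siSirt6, in which small interfering RNA was used to lower Sirt6, the gene of an NAD-dependent deacylase, and from 3 samples labelled Control, all for 48 h. The strain, age, genotype and number of animals, the siRNA sequence and the treatment of the Control samples are not given in the sources used here. Nothing in the labels says that the 3 samples of a group came from separate animals or cultures, so p-values measure only the spread between these samples, which may be technical.

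S100 proteins are small EF-hand proteins found in vertebrates. Most bind calcium as dimers, open a hydrophobic face and then dock onto target proteins such as annexins, cytoskeletal proteins and enzymes. Some are also released from cells and bind surface receptors, among them the receptor for advanced glycation end products. In arteries the family is known for roles in the motility of smooth muscle cells and in vascular inflammation.

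Of the 9 members, 8 were higher and 1, S100b, was lower in siSirt6. S100b fell to 0.444 of its Control level and S100a3 rose 2.40-fold, while the other 7 rose between 1.11-fold (S100a10) and 1.46-fold (S100a1). The trend of the difference on transcript length and GC content across the tested genes was then removed. With it removed, the rises of S100a6, S100a11 and S100a10 turned into falls, and those of S100a1 and S100a4 lost their calls. S100b, S100a3, S100a13 and S100a16 kept their direction and call there. S100a1 kept its call when the trend was taken on principal transcripts, an alternative chosen after seeing the data. All 9 had siSirt6 libraries apart from Control libraries, as had 96.8% of tested genes. Calls are adjusted p-values under 0.05 from limma on log2 of the normalised read count plus 1, with Benjamini-Hochberg adjustment over the 7179 genes tested. The background was 50.5% of tested genes called higher and 49.3% called lower, 99.8% in all. The tables hold almost only genes that differ, so that all 9 members were called says nothing about the family.

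Promoter sequences of some members are shown first, and no link between sequence and change was tested. Shown are S100b, which fell, S100a11 and S100a4, which rose as deposited, and the gap between S100a1 and S100a13, which both rose. Without the length and GC trend S100a11 reversed and S100a4 lost its call. The sequences are RefSeq's on GRCm38.p6, read 5′ to 3′ towards RefSeq's start of the gene, with bases inside annotated exons left out. The S100a11 stretch has 242 bases and for that reason stops short of RefSeq's start, from which the motif positions below are counted. Capitals mark motif matches on either strand.
S100b, chr10:76253586-76253835, plus strand, capitals for CCAAT or its complement ATTGG: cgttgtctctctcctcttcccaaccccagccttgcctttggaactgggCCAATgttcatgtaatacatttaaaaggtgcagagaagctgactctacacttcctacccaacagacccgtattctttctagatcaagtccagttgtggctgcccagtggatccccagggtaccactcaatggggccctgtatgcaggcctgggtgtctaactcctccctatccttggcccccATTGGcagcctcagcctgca
S100a11, chr3:93520246-93520487, plus strand, capitals for the E-box CACGTG, the AP-1 motif TGANTCA and the GC box GGGCGG: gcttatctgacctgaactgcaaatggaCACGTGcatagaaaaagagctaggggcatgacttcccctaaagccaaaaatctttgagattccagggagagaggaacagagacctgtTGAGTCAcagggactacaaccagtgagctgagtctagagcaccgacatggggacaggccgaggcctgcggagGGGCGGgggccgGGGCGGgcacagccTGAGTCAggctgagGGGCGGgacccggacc
S100a4, chr3:90603520-90603769, plus strand, capitals for the TATA box TATAAA: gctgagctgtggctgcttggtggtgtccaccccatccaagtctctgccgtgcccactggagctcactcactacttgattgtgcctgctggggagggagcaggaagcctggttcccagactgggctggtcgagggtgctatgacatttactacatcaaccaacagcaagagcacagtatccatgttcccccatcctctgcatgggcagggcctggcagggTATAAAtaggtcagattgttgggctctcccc
S100a1 to S100a13, chr3:90514393-90514434, plus strand, no capitals: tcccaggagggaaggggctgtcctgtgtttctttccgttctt

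RefSeq windows of 250 bases before the start were found for 8 of the 9 members, all but S100a10. TATAAA stood in those of S100a3 and S100a4, against 12.4% of all 32851 windows. The AP-1 pattern TGANTCA stood in S100a11 as TGAGTCA, at 136 and at 38 bases before the start, and in S100a16 as TGAATCA, against 6.75% of all windows. That pattern takes any middle base, so the matches and the share are of a loose form of the motif. GGGCGG stood in S100a3, S100a11 and S100a16 (32.7% of all windows), CCAAT in S100a3, S100a6 and S100b (33.8%), CACGTG in S100a11 (6.02%), the E-box CAGGTG in S100a3 and S100a16 (17.2%) and the TEAD motif CATTCC in S100a3 (12.6%). The CArG box bound by serum response factor was found in none of the 8 members and in 1.47% of all windows. Motifs were searched on both strands, S100a3 has 4 windows and S100a16 has 2, and a match is a description of letters only.

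On GRCm38, 8 members lie on chromosome 3 and S100b lies on chromosome 10, at 76253853 to 76261159 on the plus strand. S100a1 runs on the minus strand from 90511034 to 90514392, and S100a13 on the plus strand from 90514435 to 90524581, head to head with 42 bases between their annotated starts. S100a16 (90537254 to 90543151), S100a3 (90560578 to 90602702), S100a4 (90603771 to 90606045) and S100a6 (90612882 to 90624181) follow on the plus strand, and S100a11 (93520488 to 93526287) and S100a10 (93555080 to 93564643) lie further along it. All 9 are protein-coding. Exons of the predicted gene Gm42674 overlap 302 bases of S100a4 exons and 144 bases of S100a3 exons on the same strand, so reads of those genes may be shared. On the opposite strand the small nuclear RNA gene Gm23464 overlaps 117 bases of S100a3 exons. S100a2 lies within the span of S100a3 on the same strand, with no shared exon base. A processed pseudogene of S100a11, S100a11-ps, is annotated as well. The library kit keeps strand, per the labels' protocols, but the strand setting of the counting is not known here.

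Sirt6, the targeted gene, had 251.7, 257.0 and 270.4 normalised reads in Control against 44.5, 59.8 and 63.5 in siSirt6, so the libraries follow their labels. The genes of the tables took between 14458847 and 15526399 reads per library, and the depth of whole libraries is unknown. The highest is that of siSirt6 replicate 1, whose unit an automatic check did not accept, and the next is 14866718. Of 10 smooth muscle markers 8 were in the tables, 7 of them higher and 1 lower. Their summed level lay between 75304 and 76056 in Control and between 120113 and 121466 in siSirt6. Acta2, smooth muscle actin, made up most of it at 58253 ± 107 (SD, n = 3) in Control, while Tagln, Cnn1 and Myh11, which mark contractile cells, stood at 178.7 ± 32.3, 428.1 ± 20.8 and 595.3 ± 16.6. The markers Des and Myocd were not analysed here.

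The members together took between 0.903% and 0.922% of all listed values in Control and between 1.05% and 1.07% in siSirt6. S100a6, S100a11 and S100a10 made up between 93.2% and 94.1% of the members' sum in every library. Per kb of the principal transcript, S100a6 led in Control at 101400 ± 1729 normalised reads (SD, n = 3), followed by S100a11 at 51048 ± 752 and S100a10 at 30708 ± 335. S100a16 (3386), S100a13 (2796), S100a1 (1586), S100a4 (810.4), S100b (208.7) and S100a3 (51.4) followed. No 2 neighbours in that order overlapped between their Control libraries. In siSirt6 the order was the same down to S100a4, after which S100a3 (123.2 ± 17.8) stood above S100b (92.6 ± 2.71), again without overlap of the libraries. That change of order rests on the transcript chosen for S100a3: per kb of its longest transcript S100a3 stood at 27.9 in siSirt6, below S100b, and its normalised read count was also the lower, 87.7 against 137.4.

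**Figure D1:**
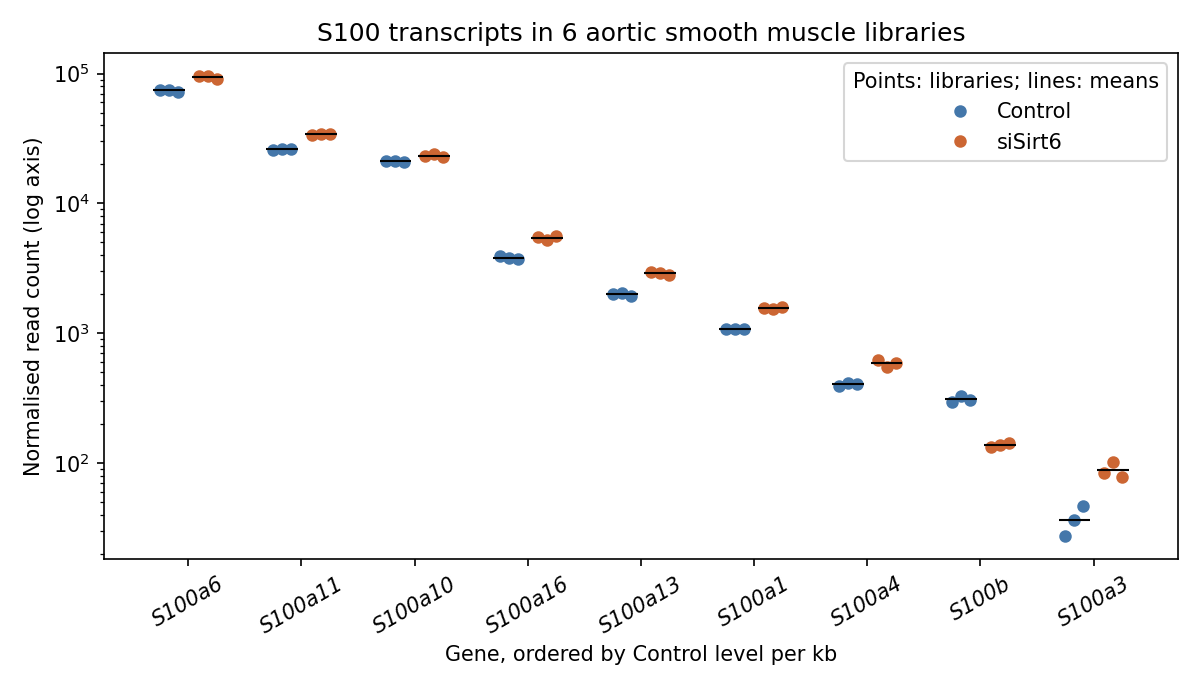
Normalised read count (log axis) of the 9 S100 genes in each of 6 libraries, with points for libraries and short lines for group means. S100a6, S100a11 and S100a10 lie at 20770 or more in every library, and S100b is the only gene whose siSirt6 points lie below its Control points.

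S100a6, or calcyclin, which binds annexins and the calcyclin-binding protein, had normalised read counts of 75107, 74565 and 72698 in Control and 95861, 95264 and 91508 in siSirt6. The lowest siSirt6 library lay above the highest Control library, as it did for every member that was higher. S100a6 rose 1.27-fold, a log2 fold change of 0.35 ± 0.016 (SE; limma adjusted p = 3.77e-13), but -0.080 ± 0.013 was left without the length and GC trend (adjusted p = 2.59e-06). S100a11, which pairs with annexin A1, stood at 25709, 26477 and 26070 in Control and 33684, 34370 and 34253 in siSirt6. It rose 1.31-fold (log2 0.39 ± 0.016 SE), and this became -0.086 ± 0.017 without the trend.

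S100a10, also called p11, does not bind calcium and forms a complex with annexin A2 that carries membrane proteins to the cell surface. Its counts were 21179, 21156 and 20770 in Control and 23311, 23818 and 22725 in siSirt6. The groups did not overlap, yet the gap was the smallest of the 9 members relative to the level, 1.11-fold (log2 0.15 ± 0.018 SE, limma adjusted p = 9.63e-09). When libraries were set to equal sums over the listed genes (listed totals), the log2 fold change was 0.028 ± 0.017 (adjusted p = 0.130), with 7 members higher and 1 lower beside 37.7% and 49.7% of all tested genes. For S100a10, -0.30 ± 0.017 was left without the length and GC trend (limma adjusted p = 1.64e-17).

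S100a1, a regulator of calcium cycling in heart and skeletal muscle, stood at 1077, 1075 and 1069 in Control and 1572, 1540 and 1598 in siSirt6. Its Control libraries lay close together and all 3 siSirt6 libraries lay far above them. It rose 1.46-fold (log2 0.55 ± 0.042 SE). S100a13, which takes part in the release of fibroblast growth factor 1 from cells, starts 42 bases away and stood at 2006, 2045 and 1946 against 2956, 2921 and 2820. It rose 1.45-fold (log2 0.54 ± 0.034 SE). S100a4 and S100a16, outside the head-to-head pair, rose by 1.45-fold and 1.43-fold, and any part of the shared start region was not tested. Without the length and GC trend S100a1 was at 0.080 ± 0.042 (limma adjusted p = 0.0877), no longer a call, and S100a13 at 0.073 ± 0.033 (adjusted p = 0.0446). With the trend taken on principal transcripts S100a1 was at 0.094 ± 0.042 (limma adjusted p = 0.0438) and kept its call.

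S100a4, known as metastasin or fibroblast-specific protein, binds the heavy chain of non-muscle myosin and is linked to cell motility. It stood at 389.3, 416.7 and 404.7 in Control and 617.0, 551.5 and 584.9 in siSirt6. All 3 siSirt6 libraries were higher, with a wider spread than in Control, and the gene rose 1.45-fold (log2 0.53 ± 0.069 SE). Without the length and GC trend it was at 0.059 ± 0.069 (limma adjusted p = 0.443). S100a16, a widely expressed member, stood at 3919, 3822 and 3709 in Control and 5522, 5214 and 5611 in siSirt6. It rose 1.43-fold (log2 0.51 ± 0.029 SE) and 0.13 ± 0.030 was left without the trend (adjusted p = 3.23e-04).

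S100b, the member best known from astrocytes and Schwann cells and a ligand of the receptor for advanced glycation end products, stood at 294.7, 330.1 and 304.2 in Control and 133.5, 137.1 and 141.5 in siSirt6. All siSirt6 libraries lay below all Control libraries and close to one another. Its mean fell from 309.7 ± 18.3 to 137.4 ± 4.03 (SD, n = 3). The log2 fold change was -1.17 ± 0.101 (SE; limma adjusted p = 3.76e-12). It lay between -1.28 and -1.12 under the alternatives that leave length alone and at -1.42 ± 0.101 without the length and GC trend. A fall of at least 2-fold was called for 3.77% of tested genes.

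S100a3, known from the hair cuticle as a zinc-binding and calcium-binding protein, had the lowest normalised read count of the 9 in both groups. It stood at 27.3, 36.0 and 46.4 in Control and 83.1, 102.1 and 78.1 in siSirt6, so its Control libraries were spread widely but still below siSirt6. The rise was 2.40-fold (log2 1.26 ± 0.204 SE, limma adjusted p = 1.51e-06), and a rise of at least 2-fold was called for 4.16% of tested genes. Leaving out 1 library at a time kept it between 1.07 and 1.44. Its longest transcript has 3143 bases and its principal one 712. With the trend taken on the longest transcript the log2 fold change was 1.27 ± 0.203, and on principal transcripts, an alternative chosen after seeing the data, it was 0.80 (adjusted p = 6.64e-04).

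**Figure D2:**
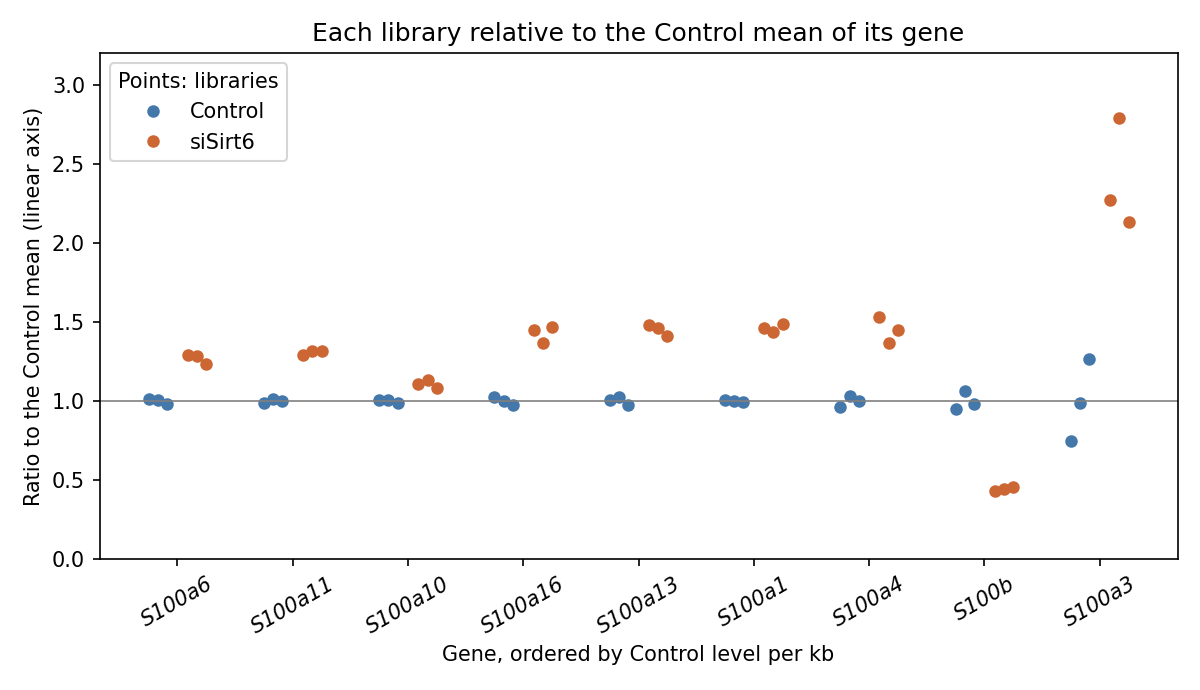
Each library's normalised read count divided by the Control mean of its gene (linear axis; points are libraries, blue for Control and orange for siSirt6). S100b lies below 0.5 in every siSirt6 library and S100a3 above 2, while the 7 other genes lie above their Control points by 1.11-fold to 1.46-fold in the mean; removal of the length and GC trend turns S100a6, S100a11 and S100a10 downward.

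Transcript length moved with the direction of change across the tested genes. When tested genes were cut into 5 equal groups by longest transcript, 8 of the 9 members fell in the shortest group (67 to 1799 bases, 1427 genes), 7 of them higher and 1 lower. In that group 82.1% of genes were called higher and 17.3% lower and the median log2 fold change was 0.37. The median of the 9 members was 0.51 as deposited and 0.059 without the trend, against 0.085 and -0.0062 over all tested genes. S100a3 fell in the middle group (2854 to 3972 bases), with 49.1% called higher and 50.7% lower. Without the trend 3 members were higher, 4 lower and 2 not called, beside 37.4% of all genes called higher and 37% lower. On principal transcripts, 4 were higher and 4 lower, beside 36.6% and 36.7%. The share of the S100 genes that rose thus lies near that of the short genes tested here. The tables look like a selection of differing genes, so the shares among unselected short genes are not known here. Length and GC content were removed together, and their separate parts were not tested.

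**Figure D3:**
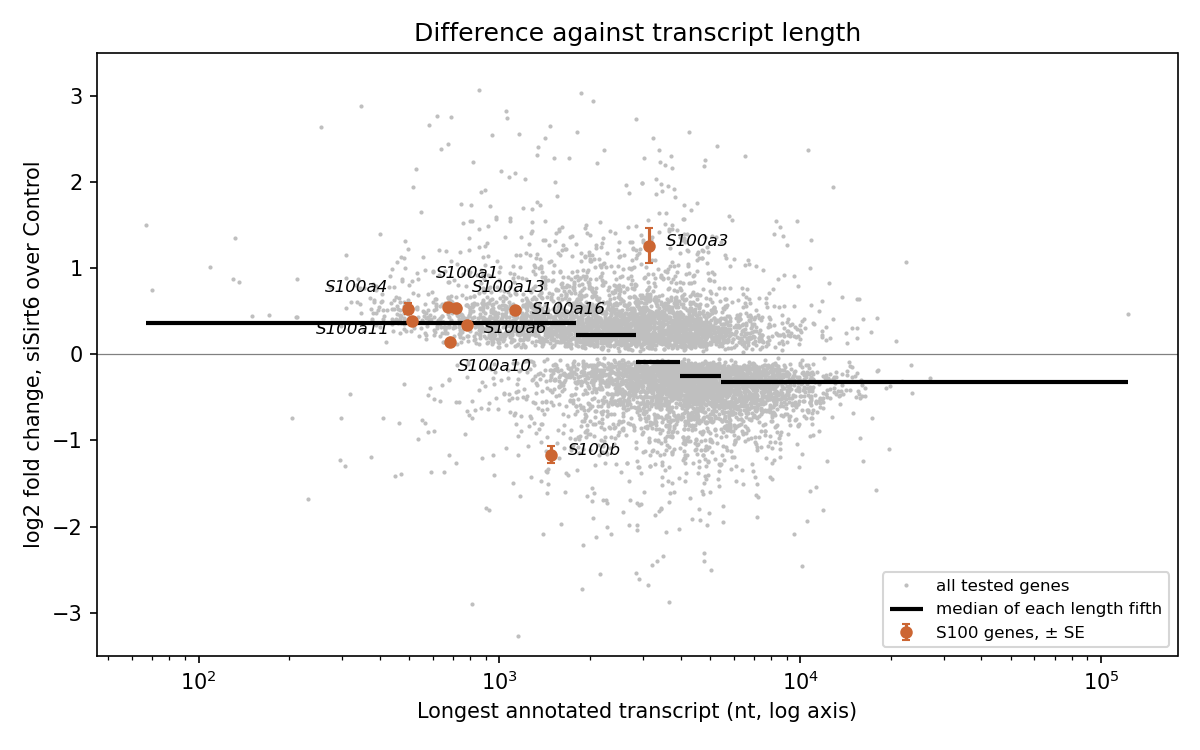
Log2 fold change of siSirt6 over Control against the length of the longest annotated transcript (log axis) for 7130 tested genes, with black lines at the median of each of 5 length groups and the S100 genes in orange with standard errors; 3 genes lie outside the axis. Most S100 genes sit at the left near the first median of 0.37, S100b lies well below it and S100a3, drawn at 3143 bases, well above its neighbours' median.

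**Figure D4:**
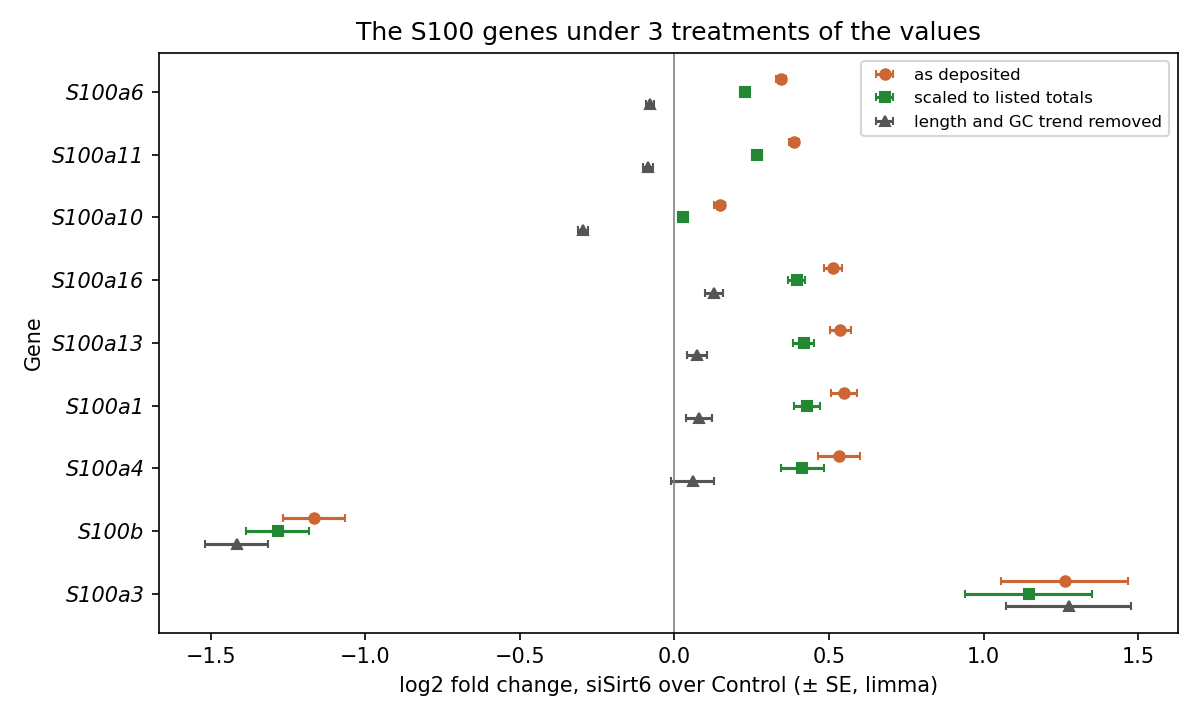
Log2 fold change with standard error (limma) of each S100 gene as deposited (circles), scaled to listed totals (squares) and without the length and GC trend (triangles). S100b stays at or below -1.17 and S100a3 above 1 in all 3, while S100a6, S100a11 and S100a10 cross 0 without the trend.

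Receptors of secreted S100 proteins were split. Of 9 listed, 4 were tested, 2 higher and 2 lower, beside 50.5% and 49.3% of all tested genes called. Their median log2 fold change was 0.11, beside 0.085 over all tested genes. Bsg, or basigin, which binds S100a9, rose from 16058 ± 330 to 20991 ± 519 (SD, n = 3). Its log2 value of 0.39 shrank to 0.075 without the length and GC trend, and the melanoma cell adhesion receptor Mcam rose 1.36-fold. The growth factor receptor Fgfr1 fell to 0.844 and Nptn, or neuroplastin, to 0.896. Nptn turned to a log2 fold change of 0.069 without the length and GC trend, but stayed lower and called on principal transcripts. The receptor for advanced glycation end products (Ager) and Tlr4 were not analysed here.

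Among annexins and other S100 binding partners, 29 of 47 listed genes were tested, 20 higher and 9 lower, with a median log2 fold change of 0.20, beside 50.5% and 49.3% of all tested genes called. Counts became 20 higher and 6 lower once the trend was taken out (37.4% and 37% of all genes), and 16 and 10 under listed totals (37.7% and 49.7%). The tropomyosins Tpm1 and Tpm2 rose by log2 fold changes of 0.58 and 0.54, annexin Anxa5 1.37-fold and the tubulin Tubb5 1.32-fold. The partners of named members that follow were chosen after their values were seen. Anxa2, the partner of S100a10, rose 1.24-fold from 43196 ± 77.8 to 53393 ± 102, and Anxa6 rose 1.39-fold. Anxa1 and Anxa11, partners of S100a11 and S100a6, fell to 0.915 and 0.846. Myh9, the non-muscle myosin heavy chain that S100a4 binds, rose 1.12-fold, and Ahnak, a scaffold of the S100a10 and annexin A2 complex, fell to 0.881. Ahnak turned to 0.068 on the log2 scale without the trend, but stayed lower and called on principal transcripts. Cacybp, the calcyclin-binding protein, rose 1.13-fold, a call lost under listed totals (log2 0.056). The calcium pump Atp2a2, a target of S100a1, fell to 0.820 (log2 -0.29), with -0.062 left without the trend.

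Other EF-hand calcium sensors went both ways, 14 of 25 tested genes higher and 11 lower, out of 60 listed, with a median log2 fold change of 0.060. The same shares of all genes, 50.5% and 49.3%, stand beside these counts and those of the marker lists. Under listed totals 8 were higher and 13 lower (37.7% and 49.7% of all genes). Without the length and GC trend the counts were 7 and 12 (37.4% and 37%). Sparc, a collagen-binding matrix protein, fell from 145021 ± 1146 to 123530 ± 1544 (SD, n = 3), and the actin bundler Pls3 rose 1.38-fold. The myosin light chain Myl9 rose 1.28-fold and the reticulum protein Rcn3 1.23-fold, but both were at or near 0 without the trend (log2 -0.034 and -0.012). Of 10 relatives outside the main family 1 was tested: Tchh, the fused-type S100 protein trichohyalin of hair follicles, fell to 0.553 (100.7 ± 3.48 to 55.7 ± 6.13). S100a7a, a skin member that the symbol pattern does not take, was named after its values were seen. It stood at 48.8, 47.7 and 62.8 in Control and 155.2, 136.1 and 140.5 in siSirt6, a 2.71-fold rise that was still 1.13 on the log2 scale without the trend.

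Within 250 kb of a member's start the tables held 6 other genes, 2 higher and 4 lower, beside 50.5% and 49.3% of all tested genes. Near S100b, the arginine methyltransferase Prmt2, the nearest by distance between starts, rose 1.19-fold, whereas Dip2a and Mcm3ap fell to 0.734 and 0.896. Prmt2 lost its call and Mcm3ap turned to 0.050 on the log2 scale without the trend, and Mcm3ap lost its call without Control replicate 3 (-0.11). The Dip2a gene overlaps the end of S100b on the opposite strand by 1731 bases, with no shared exon base. In the chromosome 3 cluster the fatty acid transporter Slc27a3 fell to 0.760, beside Tchh, which fell, and S100a7a, which rose.

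Markers of other cells in which S100 genes are known were read beside them. Schwann and glial markers, which bear on S100b, were in the tables for 7 of 15 genes, 3 higher and 4 lower. Their summed level lay between 1500 and 1691 in Control and between 1981 and 2034 in siSirt6. Without Ncam1, the most abundant of them, the other 6 summed to between 941.5 and 1075 in Control and between 800.0 and 864.8 in siSirt6, lower rather than higher. Ncam1 and, among the fibroblast markers, Gsn, Scara5 and Dpt were singled out after their values were seen. Mbp, which encodes myelin basic protein, stood at 142.5 ± 20.0 (SD, n = 3) in Control and fell to 0.749, but lost its call without the length and GC trend (log2 -0.26). Sox10 was not analysed here. Adipocyte markers (5 of 8 in the tables, 3 higher and 2 lower) summed to between 2556 and 2687 in Control and between 2665 and 2793 in siSirt6. The only listed cartilage marker of 10, the collagen gene Col2a1, rose 1.94-fold, from 405.5 ± 4.21 to 787.4 ± 27.3.

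For S100a4, adventitial fibroblast markers were in the tables for 7 of 8 genes, 3 higher and 4 lower, with sums between 88340 and 89337 in Control and between 73933 and 75140 in siSirt6. Without Gsn, the most abundant of them, the other 6 summed to between 16702 and 16962 in Control and between 16690 and 17046 in siSirt6. The lower sum thus came from Gsn, but the level sum of the other 6 held changes both ways. The largest fall among them was that of Scara5, to 0.331, and the largest rise that of Dpt, 1.64-fold. Neutrophil and macrophage markers (3 of 12, all 3 higher) summed to between 1777 and 1822 in Control and between 1978 and 2018 in siSirt6. But without the length and GC trend none was higher and 1 was lower, beside 37.4% and 37% of all genes. Endothelial markers (7 of 8, all 7 higher) summed to between 940.6 and 1082 in Control and between 1712 and 1874 in siSirt6. No listed marker was at 0 in all libraries. In bulk samples fewer cells of a type and less RNA per cell cannot be told apart, and the part of these cells in the S100 differences was not tested.

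Likeness of pattern was measured as Pearson's r of the log2 values over the 6 libraries, which share the split into 2 groups and hence give many high values. The genes most like S100b were Tgfa, Kmt2e and Prep, and 291 of 6822 genes exceeded an r of 0.99. S100a6 was most like Lmna, Flot1 and Rpl32, S100a11 like Ube3b, Esyt1 and Tagln2, S100a10 like Tsc22d4, Gnl1 and Cct7, and S100a16 like Rars, Kars and Timm17a. Genes of closely like pattern were Rpl7 and Eif5a for S100a13, while S100a1 was most like Col2a1, Rps4l and P4ha3, and S100a4 like Rps6kc1, Idh3b and Fbxo44. S100a3 had the fewest such genes, 13 over 0.99, led by Cox18, Lss and Wdr46.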

How the data were processed

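Each deposited table gives a signal for the same 7384 genes in 1 library. Per the labels' protocols, Trizol was used for total RNA, and the kit for mRNA libraries was a stranded one. Tools named in the submitters' processing notes are HISAT2, HTSeq, Cufflinks and Trimmomatic, with the build mm10, and without versions or roles. Deposited signal values are whole reads divided by 1 factor per library: 100% came out whole within 0.001 reads. The origin of these factors is unknown here. The tables look like a selection of differing genes, since only 13 of 7179 tested genes had an unadjusted p of 0.05 or more.

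Tested were the 7179 genes that reached 10 in 3 or more libraries, all 9 members among them. The test was limma 3.58.1 in R 4.3.3 (trend, robust, 2-sided) on log2(value + 1), 3 siSirt6 against 3 Control. Log2 fold changes on this scale understate the change of low genes, and folds are ratios of group means. The fit was first run on simulated data in which few genes changed and none by length. These tables are unlike that, so the run does not vouch for the calls. The length and GC trend was removed per library with mgcv 1.9.3, using GENCODE vM21 transcripts on GRCm38. edgeR 4.0.16 and DESeq2 1.42.0 ran on recovered reads of 5 libraries, since an automatic check of the unit did not accept siSirt6 replicate 1. Named are Sirt6, all members, up to 4 genes of smallest p per list, set markers, genes within 250 kb and the 3 genes most like each member; a few genes that this rule takes are not reported here. Members and lists were chosen with earlier results of these data known.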

Additional observations from a re-analysis of the deposited data

How the results depend on the processing

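Of 18 alternatives, S100b, S100a13, S100a16 and Sirt6 kept direction and call in all, and S100a3 in the 17 that tested it; a filter of mean 5 CPM left S100a3 out. With the length and GC trend removed, 3 members were higher and 4 lower in place of 8 and 1, with S100a6 at -0.080, S100a11 at -0.086, S100a10 at -0.30, S100a1 at 0.080 and S100a4 at 0.059. On principal transcripts, chosen after seeing the data, 4 were higher and 4 lower, with S100a6 at -0.099, S100a11 at -0.060, S100a10 at -0.27 and S100a4 at 0.085. S100a1 kept its call there, at 0.094. Among the named genes that are no members, those that reversed with the trend removed were Nptn (0.069), Myl9 (-0.034; -0.022 on principal transcripts), Rcn3 (-0.012), Ahnak (0.068) and Mcm3ap (0.050; 0.054 on principal transcripts). Nptn and Ahnak each reversed in 1 of the 18 alternatives and kept direction and call on principal transcripts. The higher EF-hand sensors went from 14 to 8 under listed totals, 7 with the trend removed and 8 on principal transcripts. The share of all tested genes called higher went from 50.5% to 37.7%, 37.4% and 36.6% in the same settings. Lower receptors went from 2 to 1 with the trend removed, beside 49.3% and 37% of all genes called lower. On principal transcripts they stayed at 2, beside 36.7%. Listed totals moved the median of all genes by -0.12 and put S100a10 at 0.028, its call lost.

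Without 1 library, 8 members were higher and 1 lower in every fit, S100b lay between -1.20 and -1.12 and Sirt6 between -2.31 and -2.06; where a group loses 1 library, the count of genes higher was 3491 to 3577 and lower 3410 to 3473. Same-numbered Control and siSirt6 libraries did not deviate together over all genes (r = -0.019, 0.027 and -0.00079 across genes), which cannot exclude pairing for single genes. A fit with the replicate block called 3629 genes higher and 3540 lower and changed no call of a member. That block narrowed the SE of S100a6 from 0.016 to 0.0098 and widened that of S100b from 0.101 to 0.106. The SE of S100a1 and S100a4 also widened slightly, and those of the other members narrowed. edgeR called 3407 genes higher and 3518 lower and DESeq2 2945 and 3293, with members unchanged in call and direction. S100a3, at 27.3 to 102.1 normalised reads, has the widest error of the members. Groups of 3 were not tested for outlying samples.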
